A study of Homo sapiens with 19 samples.

Results

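The regions described here are intervals called for the retinoblastoma protein RB (RB sites below) in C4-2 prostate cancer cells but not in VCaP cells. At each of them a chromatin immunoprecipitation with sequencing (ChIP-seq) for V5-tagged E2F1 also gave an interval. They were chosen from the deposited interval lists: a C4-2 RB interval was taken when it overlapped no VCaP RB interval and overlapped, by at least 1 base, an interval of at least 1 of 8 V5 lists. This gave 1103 sites out of 9146 RB intervals of C4-2. A V5 interval lay at 29.6% of the 3726 RB sites found in C4-2 only (95% Wilson interval 28.2 to 31.1), at 22.5% of the 5420 sites found in both lines, and at 25.4% of all RB sites of C4-2. Because presence in these lists chose the sites, their RB and V5 values are given as descriptions. Tests between lists were run only on shares of all C4-2-only RB sites and on the ratio of these to the two-line shares. The C4-2-only shares count the same sites met as the descriptions do.

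By binding E2F transcription factors, RB keeps their target genes silent until cyclin-dependent kinases phosphorylate it and release the E2Fs. E2F1 is the best-studied of these factors and drives genes of DNA replication and the cell cycle. LSD1 is a lysine demethylase that removes methyl groups from histones and from other proteins, and GSK2879552 inhibits it.

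The V5 lists come from C4-2 cells with a tetracycline-controlled E2F1, either the K185R mutant, in which a lysine is replaced by arginine, or wild type (WT). For each protein there were 4 conditions. Cells were left untreated, were given doxycycline at 0.25 ug/ml over 3 days, were given GSK2879552 at 50 uM over 24 hours, or were given both agents at these doses, doxycycline first. RB was mapped in untreated C4-2 and untreated VCaP cells, both established prostate cancer lines, and all cells grew in medium with charcoal-stripped serum, which is low in androgens. Each V5 group and the C4-2 RB group had 2 libraries and the VCaP group had 1, but 1 interval list per group was used, so no spread between libraries can be measured. The word merged stands in the interval names of all 8 V5 lists. In the RB list of C4-2 they name a single sequencing run, so the list that defines every site may rest on 1 of the 2 libraries. Lists labelled as doxycycline have siRB in their names and the others of the V5 set have siNTC; the labels were followed. How much tagged E2F1 the cells held in the absence of doxycycline, and whether a line was 1 clone, is not given in the labels. Interval lists show no expression, so the cell lines could not be checked against markers. The gene tables at hand are of another genome build than the files (hg19), so no gene names, annotations or sequences are given for these coordinates.

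Depth was 8.21 reads per kilobase for the C4-2 RB list and 2.98 for the VCaP list. C4-2-only thus means no more than that no overlapping interval was listed for VCaP, from 1 library at the lower depth. The VCaP list was still the longer one, with 17026 intervals against 9146 for C4-2. For the V5 lists depth ran from 0.716 to 1.79, and the 4 lists with GSK2879552 (0.716 to 1.02) were all shallower than the 4 without it (1.12 to 1.79). The part of depth in the counts of sites met was not tested.

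The C4-2-only sites with V5 lay next to the large empty stretches of the chromosomes more often than the other RB sites did. Over the union of all 10 lists, 29 stretches of at least 1 Mb held no interval. As background, long empty stretches of hg19 are largely gaps in the assembly at centromeres and other heterochromatin, but no gap annotation was used here. Of the 1103 sites, 566 (51.3%, Wilson interval 48.4 to 54.3) lay within 2 Mb of such a stretch. Among C4-2-only sites without V5 the share was 10.3% (270 of 2623), among two-line sites with V5 18.2% (222 of 1220), and among two-line sites without V5 2.74% (115 of 4200). Within 1 Mb the shares of the same classes were 47.6%, 8.16%, 16.1% and 1.36%. The median distance to a stretch was 1.39 Mb for C4-2-only sites with V5, 32.6 Mb for those without V5 and 26.5 Mb for two-line sites with V5. The intervals are not replicates, so the Wilson intervals given here and below cover counting error over intervals only.

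**Figure D1:**
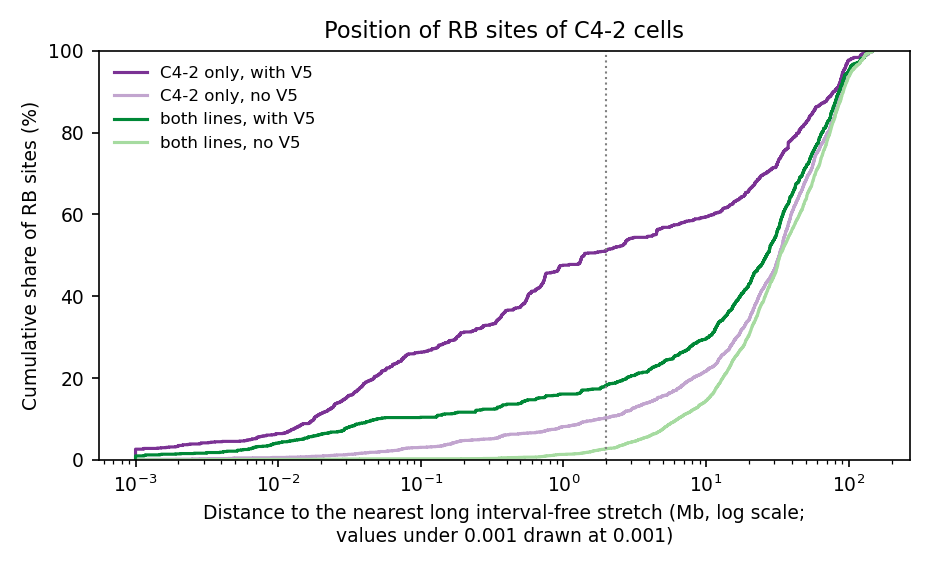
Cumulative share of RB sites of C4-2 cells (vertical axis, %) by distance to the nearest long interval-free stretch (horizontal axis, Mb, log scale) for the 4 classes of site, with a dotted line at 2 Mb. The line of C4-2-only sites with V5 reaches 51.3% at 2 Mb, where the other classes lie between 2.74% and 18.2%.

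Read from the other side, V5 intervals were frequent at the C4-2-only RB sites beside these stretches. Of the 836 such sites within 2 Mb, 67.7% had a V5 interval in at least 1 list, against 18.6% of the 2890 farther away. Two-line RB sites showed this too. Within 2 Mb 222 of them had V5 and 115 had none, whereas over all two-line sites 1220 had V5 and 4200 had none. A high V5 rate beside the stretches was thus not particular to C4-2-only sites. RB strength moved with position. The C4-2-only sites were ranked by RB −log10 q, from the authors' q-value for the interval, and divided into 4 classes of about equal size. In the class of highest q 63.7% had V5, and of those with V5 67.5% lay near a stretch, against 30.5% of those without. In the lowest class 10.96% had V5, and the near shares were 17.6% with V5 and 4.34% without. The difference in position between sites with and without V5 was thus present in the highest and the lowest class, and also in the middle classes (44.6% against 11.0%, and 18.3% against 7.37%).

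The local background of the RB library was also higher at these sites. Background is given relative to the floor, the genome-wide expectation of a list, and a site is called high-background at 10 times the floor or more. High background was found at 15.1% of the C4-2-only sites with V5 (167 of 1103), 3.16% of those without V5 and 13.2% of the two-line sites with V5. It was concentrated near the stretches, with 159 of 566 near sites (28.1%) against 8 of 537 sites farther away (1.49%). With high-background sites left out, 43.5% of the C4-2-only sites with V5 (407 of 936) still lay within 2 Mb, against 7.68% of those without V5 and 6.61% of the two-line sites with V5. The part that background plays in the position of the remaining sites was not tested.

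The sites were clustered. The nearest neighbour of the same class lay at a median of 9720 bases, and 50.1% had one within 10 kb, against 15.2% of C4-2-only sites without V5 and 19.0% of two-line sites with V5. Joining sites whose summits lay within 10 kb of each other gave 681 groups, of which 550 were single sites and 38 held 5 or more. Those 38 held 322 sites, 29.2% of all. The largest was on chromosome Y at chrY:13801021-13869870, where 24 sites fell within 68.9 kb. RB summit reads there ran from 14 to 57 with a median of 24, at a median background of 2.78 times the floor, and 12 of the 24 sites were met by all 8 V5 lists. A second group on the same chromosome, chrY:13643297-13687007, held 13 sites with a median of 19 RB reads at 1.35 times the floor, so neither chromosome Y group had any high-background site. Groups on other chromosomes could be the opposite in this respect. The 14 sites at chr16:46404061-46434630 were all of high background, at a median of 71.8 times the floor, with a median of 131 RB reads but a median fold enrichment of 2.30. The 15 sites at chr4:49634657-49659210 had a median of 45 reads, and 12 of them were of high background.

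Chromosome Y stood out by share. It held 74 of the 1103 sites (6.71%), against 1.22% of the C4-2-only sites without V5 and 1.31% of the two-line sites with V5. Of the 106 C4-2-only RB sites on this chromosome 69.8% had V5, against 28.4% of those elsewhere, and all 74 lay within 2 Mb of an interval-free stretch. The VCaP RB list itself had 60 intervals on chromosome Y and shared 22 RB sites there with C4-2. Of these 22 two-line sites 16 had V5, so a high V5 rate on chromosome Y was not particular to the C4-2-only sites. Chromosome 21 followed, with V5 at 59.2% of its 49 C4-2-only sites, 26 of its 29 sites with V5 lying near a stretch. Chromosome 10 had the most near sites after Y, 57 of 80, while chromosome 1, which had the most C4-2-only sites (367), contributed 65 sites, of which 9 were near.

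In RB signal the sites were stronger than the C4-2-only sites without V5. Their RB fold enrichment (the authors' linear ratio of summit reads to local background) had a median of 6.13 with quartiles of 4.94 and 7.94, against a median of 5.26 without V5, and the median summit rested on 20 reads against 12. Two-line sites with V5 had a median fold of 6.48 on 19 reads. The intervals were narrow, with a median width of 146 bases against 230 at two-line sites with V5. Near and far sites differed in reads more than in fold. Near sites had a median of 29.5 RB reads (quartiles 20 and 56) at a fold of 6.21, and far sites 15 reads (12 and 21) at a fold of 6.07.

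Most sites were met either by few V5 lists or by all of them. A single list met 305 sites (27.7%), all 8 lists met 235 (21.3%), and each number between 2 and 7 accounted for 77 to 136 sites. Over all RB sites of C4-2, 4.23% were met by all 8 lists, but most of those sites have no V5, which the choice of sites excludes. Over the 2323 RB sites with V5 the share was 16.7%. RB reads went up with the number of lists, from a median of 15 at sites met by 1 list to 27 at sites met by 7 and 40 at sites met by 8. The share near a stretch was 30.5% at sites met by 1 list, 69.8% at sites met by all 8, and highest (76.6%) at sites met by 6.

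**Figure D2:**
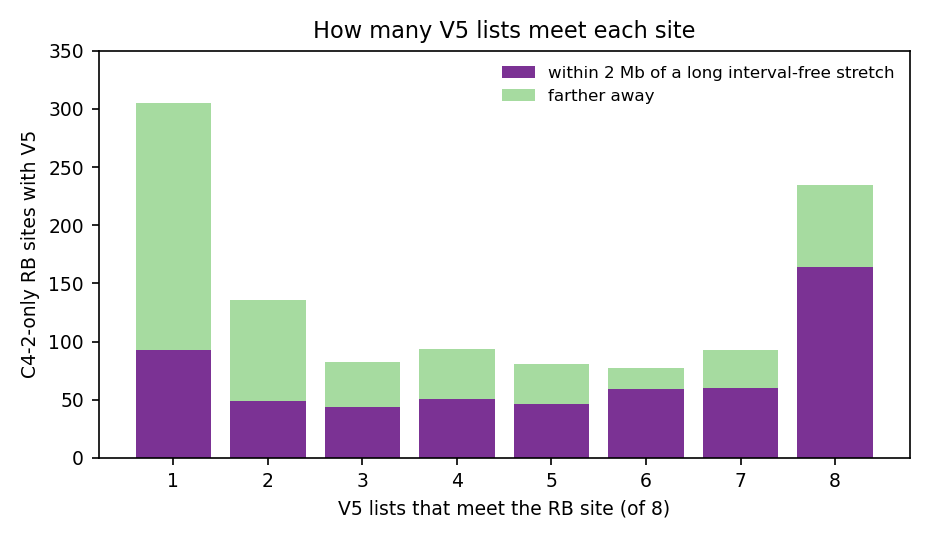
Number of C4-2-only RB sites with V5 (vertical axis) by the number of V5 lists that meet them (horizontal axis), split into sites within 2 Mb of a long interval-free stretch and sites farther away. The bars for 1 list (305 sites) and 8 lists (235 sites) are the tallest, and 164 of the 235 lie within 2 Mb.

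**Figure D3:**
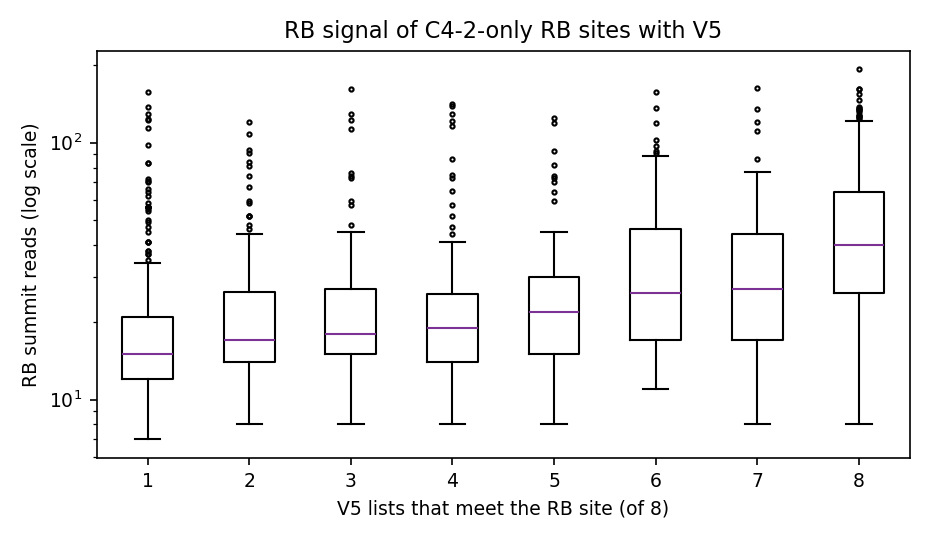
RB summit reads of the C4-2-only RB sites with V5 (vertical axis, log scale) by the number of V5 lists that meet them. Boxes show the median and quartiles, whiskers reach 1.5 times the quartile range (or the extreme value) and points lie beyond them; the medians are 15 at 1 list and 40 at 8 lists.

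The 3 sites with the highest RB −log10 q were met by all 8 lists and had a background of 2.03, 2.00 and 1.79 times the floor. At chr9:70076661-70076843 RB had 79 summit reads and a fold of 29.96, and V5 had 56, 45, 45 and 27 reads in K185R cells that were untreated, doxycycline-treated, GSK2879552-treated and treated with both, against 45, 51, 27 and 29 reads in WT cells in the same order. Its V5 folds lay between 15.1 and 22.3, against whole-list medians of 4.69 to 5.19. At chr6:119558521-119558723 RB had 78 reads at a fold of 29.9, and V5 had 34, 31, 25 and 24 reads in K185R against 33, 27, 25 and 16 in WT. This site lay 57.7 Mb from the nearest interval-free stretch, so sites common to all lists were not found near such stretches alone. At chr9:70327401-70327582 RB had 75 reads, with V5 at 56, 42, 44 and 38 reads in K185R and 49, 51, 27 and 42 in WT. The values of K185R and WT overlapped at each of these 3 sites. Both chromosome 9 sites lay outside the 2 Mb limit, at 4.59 and 4.84 Mb.

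By protein, 701 of the 1103 sites (63.6%) were met by K185R and WT lists, 101 (9.16%) by K185R lists alone and 301 (27.3%) by WT lists alone. Over all RB sites of C4-2, 1.66% were met by K185R lists alone and 12.0% by WT lists alone, and over the 2323 RB sites with V5 these shares were 6.54% and 47.2%. At least 1 K185R list met 13.4% of all RB sites and 52.8% of those with V5, so the shares met by both proteins were no higher than these. Two-line sites with V5 had another make-up, with 30.7% met by both proteins, 4.18% by K185R alone and 65.2% by WT alone. Of the sites with a single protein, 87 of the 101 with K185R and 218 of the 301 with WT rested on 1 list. Sites met by both proteins had a median of 27 RB reads, those with K185R alone 19 and those with WT alone 14.

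Position and protein went together. Near a stretch, 62 sites were met by K185R lists alone, 48 by WT lists alone and 456 by both. Farther away, the numbers were 39, 253 and 245. WT lists alone thus accounted for 47.1% of the far sites and for 8.48% of the near ones. Over all 2323 RB sites with V5, at any position, their share was 47.2%. Two-line sites with V5 also split by position. Near a stretch 12 were met by K185R lists alone, 21 by WT lists alone and 189 by both. Farther away 39 were met by K185R lists alone and 774 by WT lists alone, so this split was not particular to the C4-2-only sites. Put by pattern, 61.4% of the sites with K185R alone, 15.9% of those with WT alone and 65.0% of those with both lay near a stretch. High background was found at 19.8%, 4.65% and 19.0% of these sites.

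Among low-background sites, 81 were met by at least 2 WT lists and no K185R list, and 10 by at least 2 K185R lists and no WT list. Without the limit on background these kinds numbered 83 and 14, against 278 and 10 among the 1220 two-line sites with V5. The excess of the WT kind was thus smaller here than at two-line sites. The strongest of the first kind in the RB list was chr1:161438947-161439434, with 46 RB reads at a fold of 7.74 and V5 intervals of 12 reads in WT cells with both treatments and 11 reads in untreated WT cells. The next was chr3:153838970-153839210, with 34 RB reads and V5 at 9 and 7 reads in the same 2 WT lists. The third, chr15:89921620-89921906, had 31 RB reads and was met by the list with both treatments (6 reads) and the GSK2879552 list (5 reads). All 3 lay far from an interval-free stretch, the nearest at 18.9 Mb. The strongest of the second kind was chr12:37999765-37999911, with 25 RB reads and V5 at 13 reads in GSK2879552-treated and 18 reads in untreated K185R cells. It lay 0.14 Mb from a stretch. At chr9:66791079-66791219, 1.31 Mb from a stretch, 24 RB reads went with V5 at 16 reads in doxycycline-treated and 23 reads in untreated K185R cells, and at chr10:1282070-1282301, 37.9 Mb from one, 17 RB reads went with 6 reads with doxycycline and 8 with GSK2879552. An absent interval means only that the peak caller listed none there at the depth of that list.

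List by list, K185R lists met 715 of the 1103 sites in untreated cells, 538 after doxycycline, 521 after GSK2879552 and 361 after both. WT lists met 705, 694, 511 and 552 sites in the same order. Over all RB sites of C4-2 the lists met 11.4%, 8.53%, 9.0% and 6.07% in K185R and 14.1%, 11.8%, 12.5% and 13.9% in WT. Depth in the same order was 1.79, 1.12, 1.02 and 0.837 reads per kilobase in K185R and 1.21, 1.40, 0.716 and 0.812 in WT. The untreated and the GSK2879552 pairs were thus nearly level between the proteins, while K185R met 0.775 times as many sites as WT with doxycycline and 0.654 times as many with both treatments. The sites exchanged were many even in level pairs: without treatment 545 sites were met by both lists, 170 by K185R alone and 160 by WT alone.

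Splitting by position separated the proteins. Near a stretch, the untreated, doxycycline, GSK2879552 and combined lists met 489, 382, 344 and 254 sites in K185R, against 402, 454, 231 and 287 in WT. K185R was higher in 2 of the 4 conditions and lower in 2. Its list was the deeper one in both conditions where it was higher, and in 1 of the 2 where it was lower. Away from the stretches K185R met fewer sites in each condition, 226, 156, 177 and 107, against 303, 240, 280 and 265 in WT. The ratio of K185R to WT there was 0.746 in untreated cells, 0.65 after doxycycline, 0.632 after GSK2879552 and 0.404 after both. Two-line sites away from the stretches had the same direction, with 134, 68, 141 and 48 met in K185R against 405, 199, 492 and 565 in WT. No counts by list are given here for two-line sites near the stretches. The mixed order near a stretch is therefore not shown to be particular to the C4-2-only sites.

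**Figure D4:**
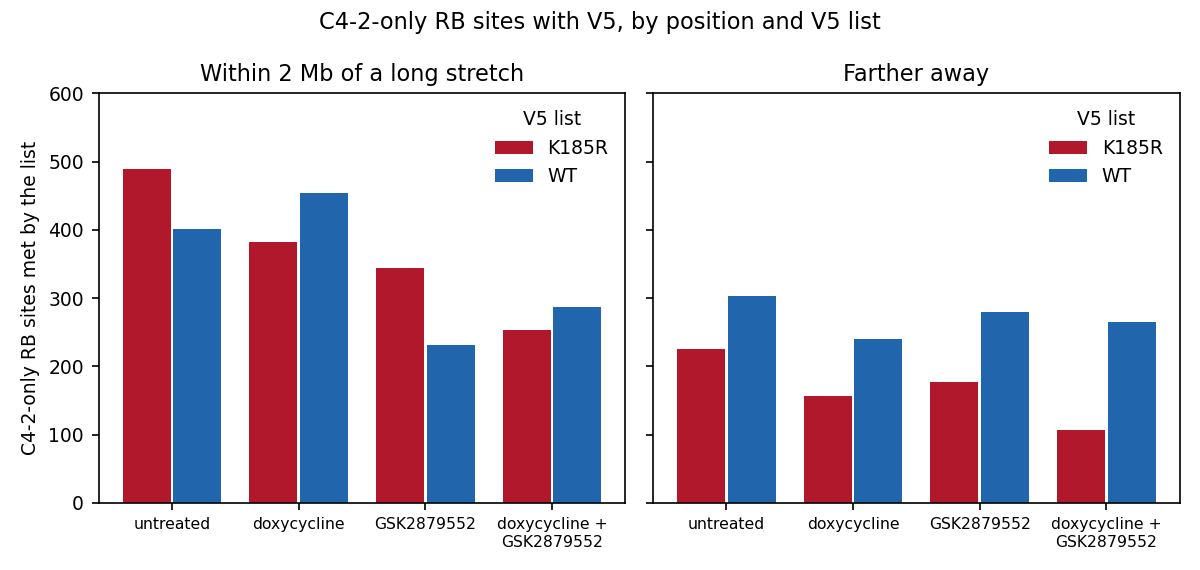
Number of C4-2-only RB sites (vertical axis) met by each V5 list, with K185R left of WT for each of 4 treatments (horizontal axis), for 566 sites within 2 Mb of a long interval-free stretch (left panel) and 537 sites farther away (right panel). In the right panel K185R lies below WT in all 4 conditions (107 to 226 against 240 to 303), and in the left panel the order varies.

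Whether the proteins differed was tested on shares of all 3726 C4-2-only RB sites, with or without V5. By the rule every such site met by a list is among the 1103, so the numerators are the list counts given above. The test is thus not independent of the V5 pattern of the chosen sites, and this holds also for the GSK2879552 and doxycycline shares below. The unit of this test is the list, the 4 lists of a protein differ in treatment, and they are not replicates. K185R lists met 14.3% ± 3.89 of these sites and WT lists 16.5% ± 2.64 (mean ± SD, n = 4 lists each), a difference of -2.19 percentage points (two-sided exact permutation p = 0.486, adjusted p = 0.571 over 4 tests, where 4 lists against 4 cannot give a p below 0.0286). With the 1000 strongest intervals of each V5 list it was -0.208 points (exact permutation p = 0.857, n = 4 lists each). With the 836 sites near a stretch left out, an alternative added after the data had been seen, the means were 5.76% and 9.41%, a difference of -3.65 points (exact permutation p = 0.0286, the smallest it can give, n = 4 lists each, not adjusted). Near the stretches K185R lists met 43.9% ± 11.6 of the C4-2-only sites and WT lists 41.1% ± 12.3 (SD, n = 4 lists each). K185R was thus lower in 4 of 4 conditions away from the stretches, and lower in 2 of 4 beside them.

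The contrast between C4-2-only and two-line RB sites was then compared between the proteins within each list. Depth and list length act there on both classes of site, but not necessarily to the same degree. In K185R cells V5 lay at 3.21, 3.23, 2.51 and 2.71 times as large a share of C4-2-only sites as of two-line sites in the untreated, doxycycline, GSK2879552 and combined lists. In WT cells the ratios were 1.76, 2.60, 1.17 and 1.12 in the same order. In each protein the lists without GSK2879552, which were deeper and held more intervals, had the higher ratios. The part of depth and list length in the ratios was not tested. The mean log2 ratio was 1.53 ± 0.18 in K185R and 0.64 ± 0.57 in WT (SD, n = 4 lists each), a difference of 0.89 (exact permutation p = 0.0571, adjusted p = 0.114), which does not pass 0.05. The height of the ratios rests on the overlap rule. Where V5 and VCaP intervals had to share 50% of both intervals, the mean log2 ratios were -0.22 in K185R and -0.65 in WT, so that C4-2-only sites then had the smaller share (difference 0.43, exact permutation p = 0.171, n = 4 lists each). That rule also changed the classes, with 7059 sites counted as C4-2-only and 2087 as two-line, instead of 3726 and 5420. The WT doxycycline list overlapped the K185R range (2.60 against 2.51 to 3.23). Without high-background RB sites and V5 intervals the difference was 1.73, and without RB sites near a stretch 1.37 (exact permutation p = 0.0286 each, n = 4 lists each, not adjusted). Away from the stretches V5 met 9.69% of C4-2-only and 9.68% of two-line sites in WT cells with GSK2879552, but 6.12% and 2.77% in K185R cells with it.

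**Figure D5:**
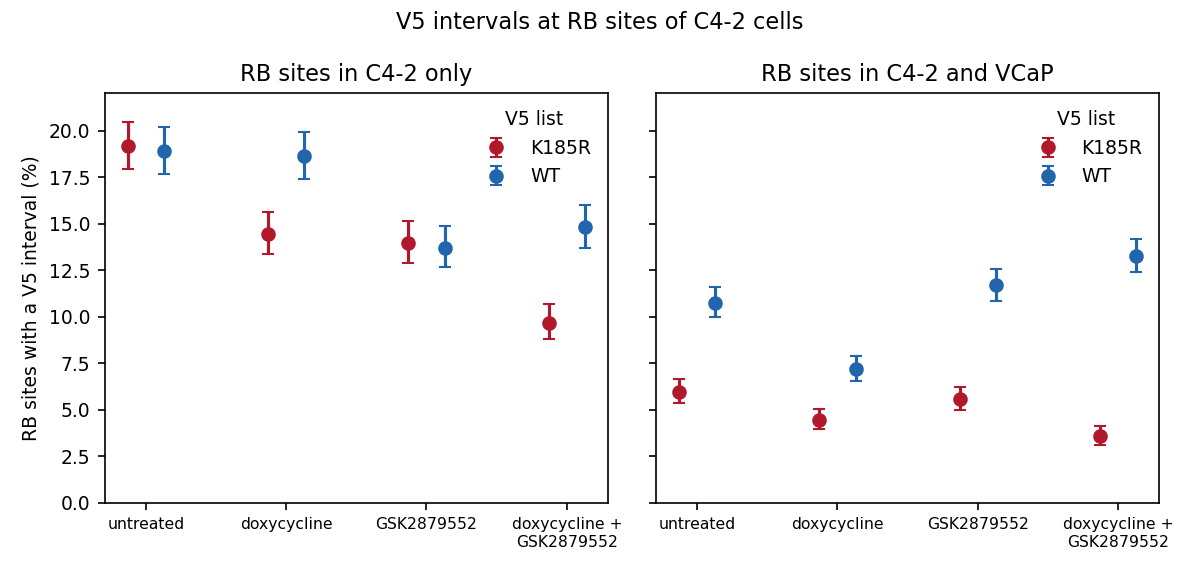
Share of RB sites of C4-2 cells with a V5 interval (vertical axis, %) in each V5 list, with K185R left of WT for each of 4 treatments (horizontal axis), at 3726 sites found in C4-2 only (left) and 5420 sites found in both lines (right); points are single lists and bars are 95% Wilson intervals over sites. At C4-2-only sites the lists lie between 9.69% and 19.2% with both proteins mixed, and at two-line sites every K185R list (3.58% to 5.98%) lies below every WT list (7.18% to 13.3%).

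GSK2879552 lists met fewer of the C4-2-only RB sites than their counterparts in each of the 4 pairs. In K185R cells GSK2879552 went with 13.98%, against 19.2% in untreated cells, and with 9.69% after doxycycline, against 14.4% with doxycycline alone. In WT cells these pairs were 13.7% against 18.9%, and 14.8% against 18.6%. The means were 13.1% ± 2.29 with GSK2879552 and 17.8% ± 2.25 without it (SD, n = 4 lists each), a difference of -4.74 points (exact permutation p = 0.0571, adjusted p = 0.114), which does not pass 0.05. It was -1.35 points with the 1000 strongest intervals of each V5 list, which evens out list length (exact permutation p = 0.114, n = 4 lists each). The GSK2879552 lists were also the shallower ones, as given above, and the part of depth was not tested. In WT cells most of the deficit lay beside the stretches. Near a stretch the WT lists met 231 sites with GSK2879552 against 402 without either agent, and after doxycycline they met 287 against 454. Farther away they met 280 against 303, and 265 against 240. In K185R cells both kinds of site were fewer with GSK2879552, at 344 against 489 and 254 against 382 near, and at 177 against 226 and 107 against 156 far. Without RB sites near a stretch the difference over all 8 lists was -0.83 points (exact permutation p = 0.657, n = 4 lists each). Two-line RB sites went the other way in WT cells, with 11.7% met with GSK2879552 against 10.8% untreated. After doxycycline it was 13.3% against 7.18%. In K185R cells two-line sites were also fewer with GSK2879552, at 5.57% against 5.98% and 3.58% against 4.46%. The direction thus depended on the class of site and on the protein.

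Sites met by GSK2879552 lists alone were mostly WT and mostly away from the stretches. There were 146 of them (13.2% of 1103), 126 met by WT lists alone, 12 by K185R lists alone and 8 by both, and 12 lay near a stretch. The share was 6.92% over all RB sites of C4-2, most of which have no V5, and 27.2% over the 2323 RB sites with V5, which is above that of the sites described here. Of the 146, 124 rested on 1 list. Low-background examples were chr19:14201462-14201875, with 21 RB reads and V5 at 8 reads with both treatments and 10 reads with GSK2879552 in WT, and chr1:228327554-228327904, with 18 RB reads and V5 at 8 and 9 reads in the same lists. Sites met by lists without GSK2879552 alone numbered 291 (26.4%, beside 5.36% of all RB sites and 21.1% of those with V5), of which 163 lay near a stretch. They included chr17:45249256-45249424, with 33 RB reads and V5 at 9 reads in untreated K185R cells and 8 reads in untreated WT cells, and chrY:10019874-10020016, with 45 RB reads and V5 at 28 reads in untreated K185R cells against 38 in doxycycline-treated and 27 in untreated WT cells.

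Doxycycline, which switches tetracycline-responsive promoters, went with fewer sites in K185R cells and with about as many in WT cells. In K185R, 538 sites were met with doxycycline against 715 untreated, and 361 against 521 on top of GSK2879552. In WT the numbers were 694 against 705, and 552 against 511. In the same pairs depth was 1.12 against 1.79 and 0.837 against 1.02 reads per kilobase in K185R, lower with doxycycline, and 1.40 against 1.21 and 0.812 against 0.716 in WT, higher with it. Over all C4-2-only RB sites the doxycycline lists met 14.4% ± 3.66 and the lists without it 16.5% ± 3.01 (SD, n = 4 lists each), a difference of -2.06 points (exact permutation p = 0.571, adjusted p = 0.571). Doxycycline lists alone met 108 sites (9.79%, beside 4.17% of all RB sites and 16.4% of those with V5), of which 92 were met by WT alone and 98 rested on 1 list. Lists without doxycycline alone met 251 (22.8%, beside 6.66% and 26.2%). Among low-background sites 9 were met by at least 2 doxycycline lists and no other, led by chr19:27812569-27812696, with 22 RB reads and V5 at 14 reads in K185R and 12 reads in WT. A further 38 were met by at least 2 lists without doxycycline and no list with it, such as chrX:106243417-106243707, with 33 RB reads and V5 at 5 reads in GSK2879552-treated K185R cells against 6 reads in GSK2879552-treated and 5 in untreated WT cells. For the counts of 9 and 38 no share over the other RB sites is given, so they only describe these sites.

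V5 intervals at these sites had more reads than the bulk of their lists. Their median summit reads were 27, 27, 22 and 25 in the untreated, doxycycline, GSK2879552 and combined K185R lists, and 19.5, 26, 15 and 16 in the WT lists, where the median of a whole list was 5 or 6. At two-line sites the medians in the same order were 34.5, 57, 20 and 52 in K185R and 8, 13, 9 and 9 in WT. Median V5 folds differed less, at 5.74 to 6.40 for the C4-2-only sites against 4.69 to 5.19 for whole lists. Near the stretches the median at C4-2-only sites was 29 to 34 reads in K185R and 29 to 36 in WT. The median background there was 17.5 to 25.0 times the floor over the 8 lists. Farther away it was 11 to 15 reads in K185R and 8 to 10 in WT, on a background of 2.06 to 3.94 times the floor. High background held for 69.2% to 77.6% of V5 intervals at near sites and for 11.0% to 23.6% of those at far sites. The sites used up little of the long lists and more of the short ones, from 1.02% of the intervals of the WT doxycycline list to 17.3% of those of the WT GSK2879552 list.

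V5 and RB summits lay close together. The rule asks for overlapping intervals and the nearest V5 summit was taken, so closeness is in part fixed by the choice of sites. In the 8 lists the median distance between them was 11 to 22 bases, and 81.2% to 88.5% of the sites met had a V5 summit within 100 bases. At two-line sites the median was 27 to 48 bases and the share within 100 bases 73.7% to 80.3%. The narrower RB intervals of the C4-2-only sites bear on this comparison, and their part was not tested.

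At the V5 edge of the rule the values were low. The site with the smallest overlap, chr11:71934986-71935096, shared 2 bases with a V5 interval of 5 reads and had 11 RB reads. Those next in order shared 5 bases, chr3:146262148-146262342 with 14 RB reads and 4 V5 reads and chr16:32198762-32198861 with 14 and 7. Just outside, 3 C4-2-only RB sites lay 1 base from a V5 interval, at chr16:5147521-5147812, chr1:201618060-201618168 and chr7:87258081-87258220, with 17, 13 and 11 RB reads. Towards VCaP, the nearest site with V5, chr10:118764505-118764613, lay 1 base from a VCaP RB interval, and 203 of the 1103 (18.4%) lay within 1000 bases of one, where the median distance over the 1103 sites was 21212 bases. Among C4-2-only sites without V5 the share within 1000 bases was 25.6%. The 3 two-line sites with V5 that overlapped VCaP least, by 1, 2 and 3 bases, had 10, 14 and 88 RB reads.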

How the data were processed

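ChIP-seq for RB and V5 was analysed from 19 libraries in 10 groups, grouped by the labels, each group given by 1 deposited interval list. Tools named in the submitters' processing notes are MACS2 2.1.0, BWA 0.7.9a, SAMtools 1.2 and FastQC 0.11.9, with build hg19; their settings, duplicate removal and control libraries are not given. Per the file layout, the authors deposited for each interval a fold enrichment (a linear ratio), −log10 of a p-value and of a q-value, a whole-number score equal to 10 times −log10 q, and a summit offset. They were used here only to describe, rank and filter within a list. MACS2 computes the fold after adding 1 read above and below and the p-value from a Poisson law, so the authors' fold and −log10 p were solved together for summit reads and local background (largest error in −log10 p 0.000163). Tested on simulated data, 99.9% or more of 1000 summit reads per list were recovered. The floor of a list is the lowest background value found at 5 or more of its intervals. Depth is the floor divided by the smallest interval width, taken as the fragment length. PCR reads without molecular identifiers are not independent molecules, so intervals cover counting error only.

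Overlap was at least 1 base. An interval-free stretch is at least 1 Mb without an interval of any list (before the first interval of a chromosome included), a definition chosen after seeing the data, as was the 2 Mb limit. Lists were compared with two-sided exact permutation tests over 70 splits, Benjamini-Hochberg adjusted over 4 tests. Named sites were the 3 highest by RB −log10 q in each class fixed by a rule on V5 pattern, and the 3 at each edge of the overlap rule; not all are printed, and genes were not named because no annotation of the files' build was used here. Alternatives were a −log10 q of at least 5, 50% reciprocal overlap, summits within 100 bases, no high background, the 1000 strongest V5 intervals, each list left out, and, added later, no sites near a stretch, no chromosome Y and lists matched by condition. The members, the rules and the tests were chosen with earlier results of these data known. Python 3.11.15, NumPy 2.4.6, pandas 2.3.3 and SciPy 1.17.1 were used.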

Additional observations from a re-analysis of the deposited data

Results flagged for a closer look

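In WT cells doxycycline went with more C4-2-only RB sites met near the long interval-free stretches and with fewer farther away, in both pairs of lists. Near a stretch the share met was 54.3% with doxycycline against 48.1% untreated, and 34.3% against 27.6% on top of GSK2879552. Farther away it was 8.30% against 10.5%, and 9.17% against 9.69%. The mean effect was 6.46 percentage points near and -1.35 far, and these differ by 7.81 points. The difference was not tested, since it rests on 2 pairs of single lists, and the WT doxycycline lists were also deeper than their counterparts without it (1.40 against 1.21 and 0.812 against 0.716 reads per kilobase).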

How the results depend on the processing

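No paired analysis was possible because the lists carry no replicate number. Matching lists by condition instead, added after seeing the data, gave an exact sign-flip p of 0.125 for GSK2879552 (lower in 4 of 4 pairs) and for the log2 ratio (higher in 4 of 4), the smallest that 4 pairs allow, 0.5 for K185R (lower in 2 of 4) and 0.375 for doxycycline (lower in 3 of 4). The 4 differences between lists kept their direction under all alternatives. For the GSK2879552 difference, -5.36 points at −log10 q of at least 5 (exact permutation p = 0.0286, n = 4 lists each) crossed the threshold, while it shrank to -2.87 with summits within 100 bases, -2.01 without high background, -1.78 at 50% overlap, -1.35 with the 1000 strongest V5 intervals, -0.83 without sites near a stretch and -0.59 without these and high background. For the K185R to WT difference in share it was crossed without sites near a stretch (-3.65) and without these and high background (-3.60), while it shrank to -1.07 at −log10 q of at least 5 and -0.208 with the 1000 strongest V5 intervals. For the difference in log2 ratio it was crossed without high background (1.73), without sites near a stretch (1.37) and without both (1.45), while it shrank to 0.53 at −log10 q of at least 5 and 0.43 at 50% overlap. The doxycycline difference was -1.04 with the 1000 strongest V5 intervals. The cause was not tested. Leaving out each list in turn gave -5.86 to -3.62 for GSK2879552, with an exact permutation p of 0.0286 without the K185R doxycycline list. It gave -3.82 (without untreated K185R) to -0.649 (without K185R with both agents) for K185R against WT, -3.47 (without WT doxycycline) to -0.492 (without K185R with both agents) for doxycycline, and 0.73 to 1.13 for the log2 ratio, with an exact permutation p of 0.0286 without the WT doxycycline list. The number of sites, 1103, became 695 without high background, 719 with the 1000 strongest V5 intervals, 537 without sites near a stretch and 501 without both, each because fewer intervals enter. It was 757 at −log10 q of at least 5 and 1029 without chromosome Y. It rose to 1276 at 50% overlap and 1320 with summits within 100 bases, where more RB sites counted as C4-2-only (7059 and 5615). Shallow V5 lists limit what absence means: their median summit rests on 5 or 6 reads.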
